A study of Caenorhabditis elegans with 48 samples.

Results

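The genes described here carry out meiotic recombination and synapsis in Caenorhabditis elegans. They were taken by name from a list of 38 genes, matched through current and older symbols to WormBase gene identifiers. Of the 38, 37 had a row in the mRNA-seq table, which holds 19454 genes, and 29 had a row in the Ribo-seq table, which holds 10741 genes; him-3, a chromosome axis protein, was not analysed here. The 8 members with an mRNA row and no footprint row were dsb-3, him-19, zim-3, chk-2, cosa-1, zhp-1, zhp-4 and rmh-1. Their mean mRNA counts per library ran from 28.5 to 223, and no gene listed in the footprint table had 10 counts or more in fewer than 13 of the 24 columns.

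In meiotic prophase, homologous chromosomes find each other, are zipped together by the synaptonemal complex and exchange DNA at crossovers. In the worm, zinc-finger proteins bound to pairing centres near chromosome ends are linked through the nuclear envelope to dynein, which moves the chromosomes. Programmed DNA breaks made by SPO-11 are repaired on the homolog by RAD-51, and a few of these repair events mature into crossovers marked by COSA-1 and ZHP-3. Cohesin and the HORMA-domain proteins form the axis on which all of this takes place.

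Messenger RNA (polyA mRNA-seq) and ribosome footprints (Ribo-seq, the mRNA fragments protected by translating ribosomes) were sequenced in 2 experiments. The first compared Fed with Starved worms, with 6 libraries per group and assay. The second compared an Empty_vector control with knockdown of E02H1.1 and with knockdown of C27F2.4, with 4 libraries per group and assay. As background, E02H1.1 is the worm homolog of the 18S rRNA methyltransferase DIMT1 and C27F2.4 that of BUD23. The labels name every sample as young adult and give no strain, animal number, duration of starvation or generation, and they do not say whether libraries came from separate cultures, so that p-values measure only the spread between these libraries.

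Total counts ran from 19238095 to 22837203 in mRNA-seq libraries and from 3905609 to 11746420 in Ribo-seq libraries. The E02H1.1 knockdown had 19.1 ± 1.61 mRNA CPM (counts scaled to a common library size; SD, n = 4) of E02H1.1 against 67.8 ± 5.42 in Empty_vector, a log2 fold change of -1.83, and -1.99 in footprints. The C27F2.4 knockdown had 31.5 ± 1.93 mRNA CPM of C27F2.4 against 62.1 ± 4.55, a log2 fold change of -0.98, and -1.59 in footprints. The label young adult did not match the marker genes: 28 adult soma and sperm markers, the vitellogenins and major sperm proteins among them, summed to 5.89 to 11.5 mRNA CPM per library, 4 of them were at 0 throughout, and none had a footprint row. In contrast, 9 embryonic sheath and apical matrix genes summed to 3726 to 5065 mRNA CPM, 23 oocyte and maternal genes to 1384 to 2898, and 17 general germline genes to 1120.1 to 1483. The 37 meiotic genes summed to 678 to 1018 mRNA CPM, so their messages were present beside embryonic and maternal markers; with whole-worm RNA, fewer cells of a type and less RNA per cell cannot be told apart.

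The footprint level of a gene over its own mRNA level ranked the meiotic genes against all genes, with gene length cancelling. Each assay was scaled to its own library size, so the ratio is relative and not the share of a message on ribosomes. The 8 members without a footprint row have no ratio here. In Fed worms the median log2 ratio of footprint to mRNA CPM was -1.09 over the 29 meiotic genes and -0.05 over 10717 genes in both tables. By rank among all these genes, 22 of the 29 were below the median, 20 below the 25th percentile and 11 below the 10th. In Empty_vector worms the median was -0.76 for the meiotic genes against -0.07 for all genes, with 22, 17 and 10 below the same marks. Which part of a transcript was counted in either assay is not given in the sources used here, and so a long untranslated region could lower such a ratio.

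Members of the same step differed widely in this ratio. Among axis components, htp-1 and htp-2, which encode nearly identical HORMA-domain proteins, had log2 ratios of -3.21 ± 0.35 and -2.92 ± 0.23 (SD, n = 6, Fed), at the 0.439 and 0.672 percentiles of all genes, and the kleisin gene coh-3 had -2.6 ± 0.52. Their axis partner htp-3 had 0.04 ± 0.13, at the 54.4 percentile, and the meiotic kleisin rec-8 had -0.12 ± 0.11. Because htp-1 with htp-2, and coh-3 with coh-4, are near copies, the split of reads between them is uncertain. How reads shared by near copies were counted or dropped in either assay is not given, so their low ratios are uncertain too. Their footprint counts were also low, with Fed means of 10.5 per library for htp-1 and 19.7 for htp-2 and for coh-3. Among synaptonemal complex central proteins, syp-4 had -2.58 ± 0.39 and syp-2 had -2.25 ± 0.39, while syp-1 had -0.64 ± 0.18 and syp-3 had -0.78 ± 0.24. Among break factors, spo-11, the topoisomerase-like enzyme that cuts the DNA, had -2.45 ± 0.23, whereas dsb-2, needed to make breaks, had 0.46 ± 0.2. The spo-11 gene overlaps enpl-1, which had 1600.2 mRNA CPM in Empty_vector against 16.2 for spo-11. Whether counting used the strand is not given, so the spo-11 ratio is uncertain.

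The pairing centre genes zim-1, zim-2 and him-8 had -2.19 ± 0.2, -1.03 ± 0.2 and -2.12 ± 0.31. These genes, with zim-3, lie side by side in the WBcel235 assembly. The nuclear envelope pair that links pairing centres to dynein stood at the other end, with 0.61 ± 0.09 for sun-1 and 0.53 ± 0.08 for zyg-12. The highest ratio of the 29 was 1.02 ± 0.12 for the crossover factor zhp-3, at the 94.3 percentile. In Empty_vector worms htp-1 was again lowest at -2.66 ± 0.37 and zhp-3 highest at 0.79 ± 0.08 (SD, n = 4). Between them the order differed: zyg-12 had 0.12 ± 0.09, at the 60.7 percentile, under dsb-2, sun-1, rad-51 and htp-3, and syp-1 and syp-3 had -0.06 ± 0.26 and -0.10 ± 0.29.

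**Figure D1:**
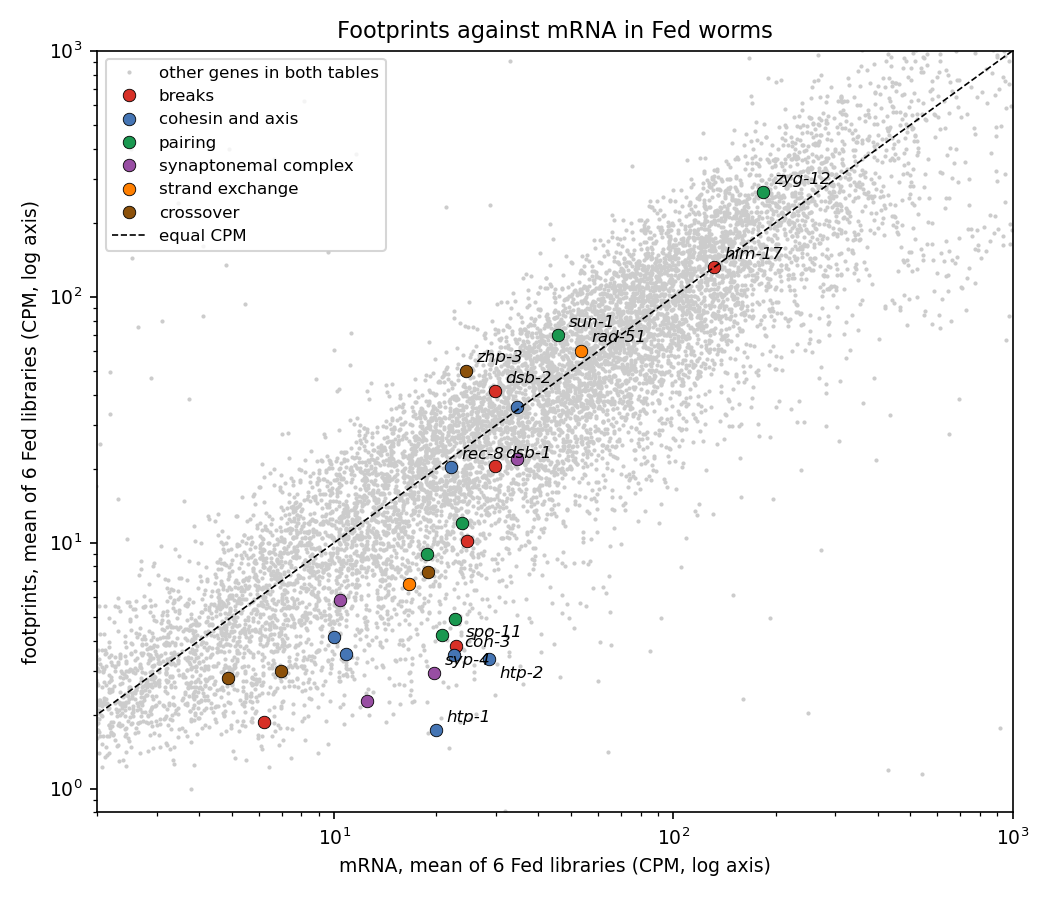
Mean footprint CPM against mean mRNA CPM of 29 meiotic genes in 6 Fed libraries per assay, both on log axes and coloured by role. The distance from the diagonal is the footprint to mRNA ratio; htp-1 lies farthest below it and zhp-3 lies above it, while position along either axis also depends on gene length.

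Starvation was the first comparison, and it asked which genes differ between Starved and Fed worms in message, in footprints and in translational efficiency (TE, footprints relative to mRNA). Footprints fell for 9 of 28 meiotic genes tested and rose for 0, led by dsb-1, sun-1, rec-8 and rad-54.L. Messages fell for 5 of 37 and rose for 0, with fold changes of -0.13 to -0.38 on the log2 scale. TE fell for dsb-1 and sun-1. A gene was called at an adjusted p under 0.05 in edgeR's quasi-likelihood test, adjusted by Benjamini-Hochberg over all genes, and the error given with each log2 fold change is its SE. Over all genes, 14.7% were called lower and 13.9% higher in footprints, 10.2% lower and 11.8% higher in mRNA, and 4.26% lower and 2.05% higher in TE. The meiotic genes called lower made up 32.1% of those tested in footprints, 13.5% in mRNA and 7.14% in TE, and so the mRNA share was close to that of all genes.

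Of the break factors, 3 of 5 were called lower in footprints and 0 of 8 in mRNA. The gene dsb-1 (WBGene00008580), required for break formation, had 16.4, 21.0 and 23 footprint CPM as its lowest, median and highest Fed library and 11.3, 12.9 and 14.1 in Starved. Every Starved library was below every Fed library, and the log2 fold change was -0.66 ± 0.10 (SE; adjusted p = 3.21e-06). Its mRNA had 26.0, 29.9 and 32.2 CPM in Fed and 21.9, 26.0 and 32.6 in Starved, with overlapping groups and a log2 fold change of -0.15 ± 0.09 (edgeR adjusted p = 0.25). The change in TE was -0.53 ± 0.14 (adjusted p = 0.0198), a call that ended without Starved 3 or without Starved 5, where the adjusted p reached at most 0.0685. Footprints also fell for xnd-1, a chromatin factor that shapes where crossovers form (-0.40 ± 0.13, adjusted p = 0.0176), and for him-17, a chromatin protein needed for breaks (-0.17 ± 0.05, adjusted p = 0.00964), both with overlapping groups.

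Of the cohesin and axis genes, 2 of 7 were called lower in footprints and 1 of 7 in mRNA. The kleisin gene rec-8 (WBGene00004333) had 18.0, 20.3 and 23.4 footprint CPM in Fed as lowest, median and highest, and 12.5, 14.7 and 19 in Starved. The highest Starved library, Starved 3, reached into the Fed range, and the log2 fold change was -0.43 ± 0.10 (adjusted p = 0.000994). Footprints of htp-3 fell by 0.28 on the log2 scale (adjusted p = 0.00621). The message of coh-4 (WBGene00021560), another meiotic kleisin, ran through 9.9, 10.6 and 12.7 CPM in Fed and 7.32, 8.81 and 9.67 in Starved. These groups did not overlap, and the log2 fold change was -0.32 ± 0.10 (adjusted p = 0.0171; 0.0574 without Fed 1).

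Among pairing genes, the nuclear envelope pair was called in footprints and the pairing centre genes with a footprint row were not. The inner nuclear membrane gene sun-1 (WBGene00006311) had 66.6, 69.8 and 74.6 footprint CPM in Fed and 46.4, 49.8 and 57.8 in Starved. All Starved libraries were below all Fed libraries, and the log2 fold change of -0.45 ± 0.06 had the smallest adjusted p of any member, 3.03e-07. Its mRNA had 40.4, 45.3 and 52.5 CPM in Fed and 36.8, 40.3 and 46.7 in Starved, which overlap (-0.16 ± 0.06, adjusted p = 0.065). Its TE fold change -0.30 ± 0.09 (adjusted p = 0.0362) lost the call on leaving out any of 9 of the 12 libraries, with an adjusted p of up to 0.102. Its outer membrane partner zyg-12 (WBGene00006997), which also attaches centrosomes to nuclei in embryos, had 252, 271 and 276 footprint CPM in Fed and 207, 243 and 254 in Starved. These groups overlapped slightly, and the fold change was -0.18 ± 0.05 (adjusted p = 0.00527). The zyg-12 message ran through 176, 185 and 190.4 CPM in Fed and 162, 169 and 175 in Starved, without overlap (-0.13 ± 0.03, adjusted p = 0.00666). The zinc-finger genes him-8, zim-1 and zim-2 had footprint fold changes of -0.05 ± 0.18, 0.01 ± 0.19 and -0.17 ± 0.15, and the polo kinase gene plk-2 had -0.25 ± 0.13. Mean Fed footprint counts were 29.5 for him-8, 25.5 for zim-1 and 53.8 for zim-2, against 1592 for zyg-12. With errors of 0.15 to 0.19, a fall of the zyg-12 size could have been missed in these zinc-finger genes.

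Of the 4 synaptonemal complex genes, syp-1 was called in footprints and syp-3 in mRNA, and syp-2 and syp-4 in neither. No TE change, the test of a difference between assays, was called among them. Footprints of syp-1 fell (-0.32 ± 0.09, adjusted p = 0.00787), with an mRNA fold change of -0.05 ± 0.06. The message of syp-3 (WBGene00006377) had 8.09, 10.4 and 12.2 CPM in Fed and 6.21, 7.85 and 10 in Starved. The groups overlapped; the fold change was -0.38 ± 0.12 (adjusted p = 0.0164; 0.0513 without Fed 3). Its footprints had a fold change of 0.12 ± 0.16, and its TE fold change was 0.49 ± 0.2 (edgeR adjusted p = 0.14).

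In strand exchange and crossover formation, rad-54.L and zhp-3 changed. The motor gene rad-54.L (WBGene00004298; listed under its older symbol rad-54), which acts with RAD-51 on DNA, had 5.84, 6.82 and 7.85 footprint CPM in Fed and 3.71, 4.42 and 5.09 in Starved. No Starved library reached the Fed range (-0.63 ± 0.16, adjusted p = 0.00218). Its message had 14.5, 16 and 19.8 CPM in Fed and 11.9, 13.6 and 15.3 in Starved, with overlap (-0.29 ± 0.09, adjusted p = 0.0156; 0.057 without Fed 6). The recombinase gene rad-51 had footprint levels of 60.3 ± 2.02 and 56.1 ± 3.29 CPM in Fed and Starved and was not called in either assay. The RING-finger gene zhp-3 (WBGene00006976), whose product marks crossovers, had 23.1, 24.5 and 26.3 mRNA CPM in Fed and 16.6, 20.2 and 22.4 in Starved. Its groups did not overlap in mRNA (-0.28 ± 0.07, adjusted p = 0.00448), while its footprints changed by -0.15 ± 0.07 (adjusted p = 0.094).

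**Figure D2:**
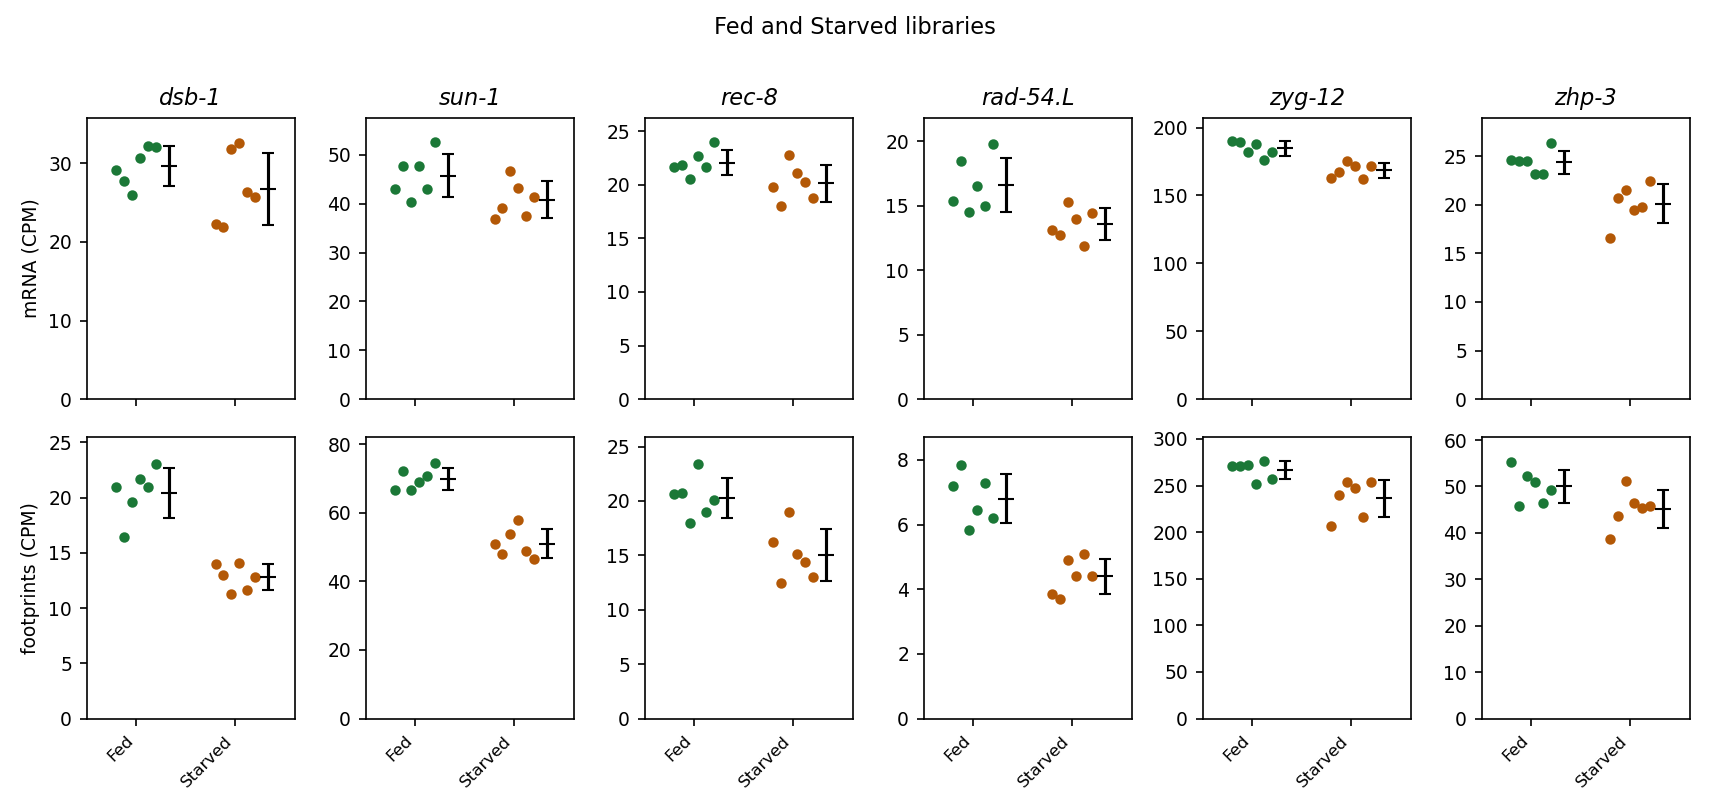
CPM of 6 meiotic genes in each Fed and Starved library, mRNA and footprints, with bars for the mean and SD of 6 libraries. In footprints the Fed and Starved points of dsb-1, sun-1 and rad-54.L are separate, and in mRNA those of zyg-12 and zhp-3 are.

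The direction was shared beyond the called genes: 32 of 37 messages and 22 of 28 footprint levels had fold changes below 0, against 49.3% and 48.2% of all genes, and the medians were -0.10 and -0.19. Fold changes of the 37 messages ranged from -0.38 for syp-3 to 0.40 for zhp-1, whose mean was 1.36 CPM in Fed. Among 72 other meiosis genes, messages fell for 18 and rose for 1 of 71 tested, and footprints fell for 36 and rose for 2 of 69, which is 52.2% called lower. The synaptonemal complex gene syp-6 fell in both (mRNA -0.42 ± 0.06, adjusted p = 1.19e-05; footprints -0.46 ± 0.05, adjusted p = 1.05e-08). In mRNA, rmh-2 and the cohesin gene smc-3 also fell (-0.31 ± 0.08 and -0.24 ± 0.04), and skr-1, which works within the synaptonemal complex and in protein turnover, rose (0.11 ± 0.03). In footprints, exo-1, a nuclease of break resection, and dhc-1, the dynein heavy chain that moves pairing centres, fell by 0.47 and 0.45 on the log2 scale, while skr-1 and the phosphatase gene gsp-1 rose (0.18 ± 0.04 and 0.16 ± 0.04). TE fell for 7 of 69, with top-3, dhc-1 and the checkpoint kinase gene atl-1 at -0.41 ± 0.11, -0.38 ± 0.07 and -0.38 ± 0.09.

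In footprints, markers of germline and maternal RNA were called lower more often, at 53.3% and 60.0%, than the 14.7% of all genes. In footprints, 8 of 15 general germline markers and 9 of 15 oocyte and maternal markers were called lower and 0 higher, with medians of -0.22 and -0.25 on the log2 scale. Their footprint CPM summed to 1256 to 1343 in Fed and 1065 to 1222 in Starved for germline, and to 1824 to 2222 and 1477 to 1820 for oocyte and maternal markers, with none at 0 throughout. In mRNA, 3 of 17 and 2 of 21 were called lower and 1 of each higher. These lower shares were 17.6% and 9.52%, against 10.2% of all genes. Of 8 early zygotic markers, 4 were called lower in each assay and 1 was called higher in footprints, and 4 of 9 embryonic sheath genes were called higher in footprints. Of the furrow and larval cuticle collagens, 2 of 7 were called higher in mRNA and 1 of 6 in footprints. The part of these markers in the result was not tested. Starved 1 and Starved 5 lay farthest from Fed over all genes, and without them 2 meiotic messages and 4 footprint levels remained called. The footprint calls of dsb-1, sun-1, rec-8 and rad-54.L were kept. Lower calls over all genes then made up 6.25% in mRNA and 9.62% in footprints, against 10.2% and 14.7% with all libraries. With library totals in place of TMM scaling, calls over all genes moved to 9.15% higher and 15.1% lower in mRNA, and to 5.1% higher and 2.63% lower in TE.

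**Figure D3:**
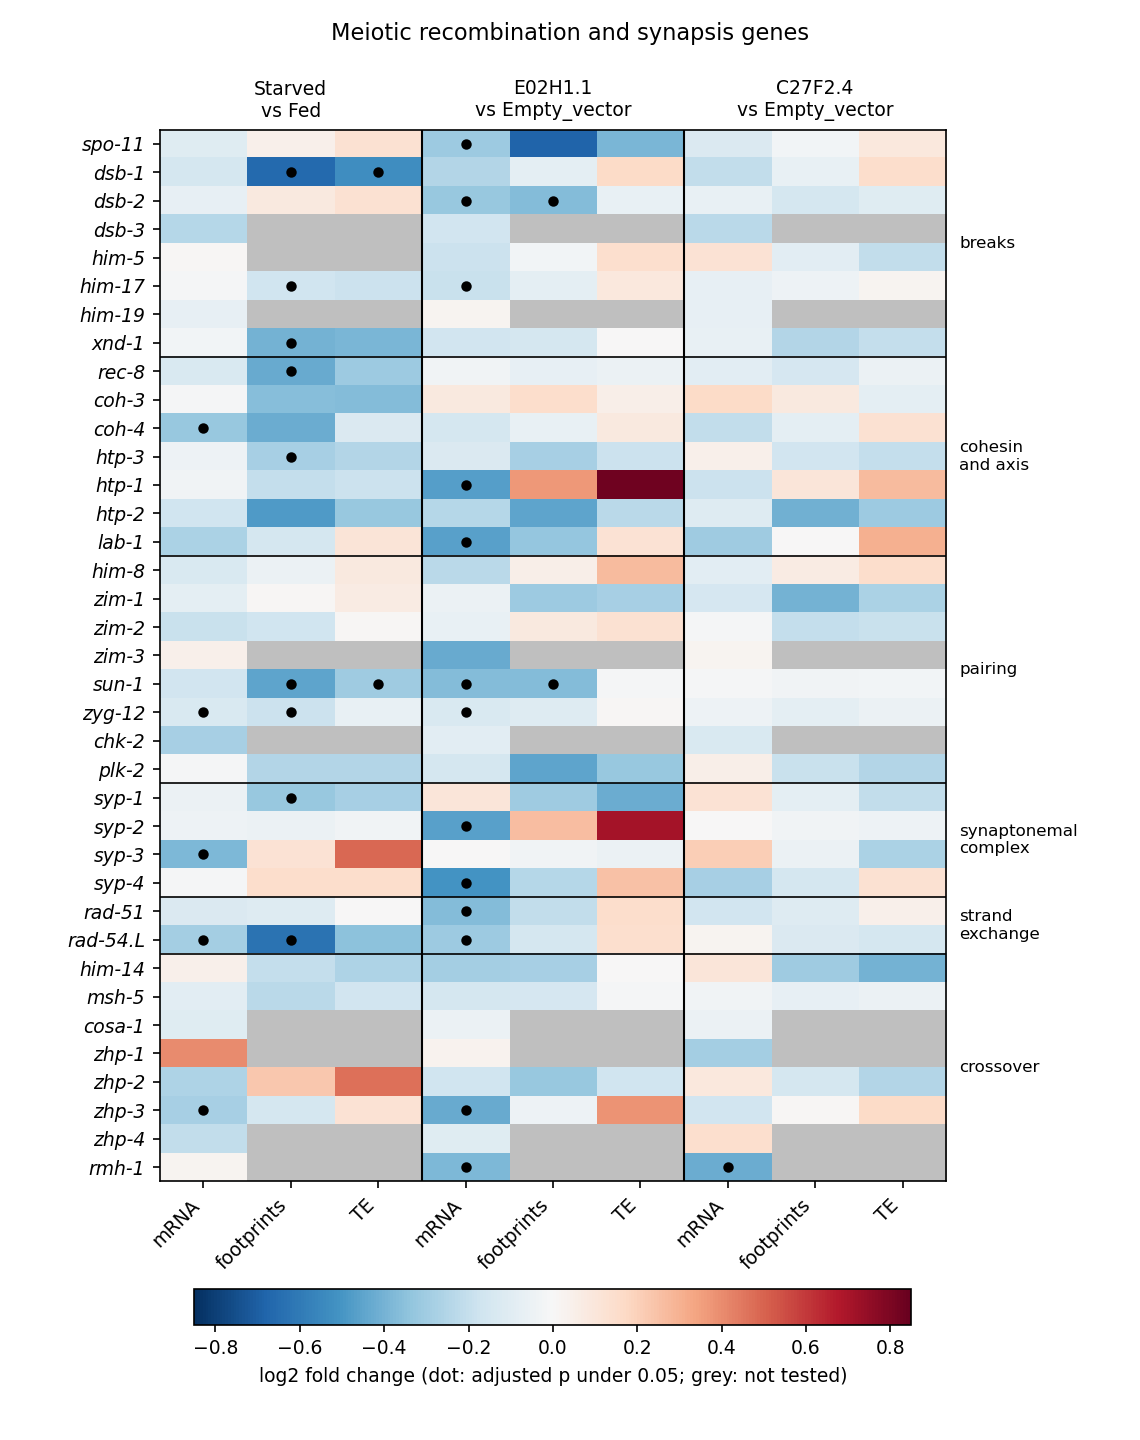
Log2 fold changes of 37 meiotic genes, in rows by role, for mRNA, footprints and TE in 3 comparisons, on a colour scale of the fold change; dots mark adjusted p under 0.05 and grey marks values not tested. Dots fall in 9 rows for Starved footprints and 13 for E02H1.1 mRNA, all of them on fold changes below 0.

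Knockdown of E02H1.1 was compared with Empty_vector to ask what loss of this methyltransferase does to messages and their translation. Messages fell for 13 of 37 meiotic genes and rose for 0, with members of every step among them. The lowest adjusted p were those of rad-51, syp-4, htp-1, zhp-3 and him-17. Footprints fell for dsb-2 and sun-1 and rose for 0 of 29, and no TE change was called. Over all genes, 19.6% were called lower and 19.9% higher in mRNA, 9.23% lower and 10.7% higher in footprints, and 5.82% lower and 4.8% higher in TE. The meiotic share called lower was 35.1% in mRNA and 6.9% in footprints, the latter under that of all genes. At an unadjusted edgeR p under 0.05, 7 of 29 footprint levels were lower and 0 higher, against 1687 of 10736 lower over all genes.

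The recombinase gene rad-51 (WBGene00004297), whose product coats resected breaks and invades the homolog, had mRNA levels of 46.8, 46.8, 56.8 and 48.2 CPM in Empty_vector A to D and 38.7, 37.2, 40.3 and 37.3 in E02H1.1 A to D. All knockdown libraries were below all controls, and Empty_vector C stood above its group (-0.37 ± 0.07, adjusted p = 0.000157; at most 0.00134 on leaving out any 1 library). Its footprints had a fold change of -0.21 ± 0.08 (adjusted p = 0.0859), with no overlap between the groups. Its partner rad-54.L had an mRNA fold change of -0.31 ± 0.12 (adjusted p = 0.0483), and that call ended on leaving out any of 6 of the 8 libraries.

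Of the 4 synaptonemal complex messages, syp-4 and syp-2 fell. The syp-4 message (WBGene00019247) had 12.3, 13.6, 13.2 and 15.3 CPM in the controls and 8.14, 10.3, 11.3 and 8.49 in the knockdown. The groups were separate (-0.51 ± 0.12, adjusted p = 0.00189). The syp-2 fold change was -0.46 ± 0.14 (adjusted p = 0.0103), also without overlap, while syp-3 and syp-1 had no called change in either assay. At the axis, htp-1 (WBGene00002032) had 16.7, 15, 16.1 and 11.6 CPM in the controls and 12.2, 9.82, 11.4 and 9.48 in the knockdown. Empty_vector D lay within the knockdown range (-0.47 ± 0.12, adjusted p = 0.0036), and htp-2, its near copy, had -0.24 ± 0.11 (adjusted p = 0.0903). The cohesion protector gene lab-1 had -0.46 ± 0.17 (adjusted p = 0.0285), a call that ended on leaving out any of 4 libraries.

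Among crossover genes, zhp-3 had 19.3, 16.9, 23.3 and 17.7 mRNA CPM in the controls and 11.7, 16.9, 14.1 and 14.4 in the knockdown. E02H1.1 B overlapped the controls (-0.43 ± 0.12, adjusted p = 0.00503). The rmh-1 message, from a gene for an RMI-type partner of the BLM helicase, fell by 0.38 on the log2 scale (adjusted p = 0.0317; at most 0.149 on leaving out 1 library). Among break factors, him-17 (WBGene00001874) had 145, 126, 144 and 131 CPM in the controls and 119, 117, 120.4 and 122 in the knockdown. The knockdown libraries lay together just below the lowest control (-0.19 ± 0.05, adjusted p = 0.00762). The spo-11 message fell by 0.31 (adjusted p = 0.0385), a call that ended on leaving out any of 6 libraries.

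Both assays fell for dsb-2 and sun-1. The break factor gene dsb-2 (WBGene00194892) had 34.7, 35.1, 35.3 and 32.1 footprint CPM in the controls and 26.7, 28.8, 27.4 and 24 in the knockdown, all below every control (-0.37 ± 0.08, adjusted p = 0.00276). Its mRNA fold change was -0.32 ± 0.10 (adjusted p = 0.0114). The sun-1 footprints were 43.5, 48.2, 56.4 and 48.8 CPM in the controls and 37.3, 33.4, 38.2 and 43.1 in the knockdown, where E02H1.1 D came close to Empty_vector A without reaching it (-0.37 ± 0.10, adjusted p = 0.0114; 0.0508 without E02H1.1 B). The sun-1 message had -0.37 ± 0.11 (adjusted p = 0.00967; 0.0507 without Empty_vector C), and zyg-12 had -0.13 ± 0.05 (adjusted p = 0.0343; at most 0.104 on leaving out 1 library). No TE change was called by edgeR or by DESeq2, and 4 of 29 had an unadjusted edgeR p under 0.05: htp-1 (0.83 ± 0.30), syp-2 (0.71 ± 0.31) and zhp-3 (0.38 ± 0.17) above 0, and syp-1 (-0.42 ± 0.17) below. Among all genes, 2646 of 10714 TE values had such a p, 1245 of them below 0. A fit that took same-named mRNA and Ribo-seq libraries as 1 culture, which the labels do not state, called 3 of the 29, 2 higher and 1 lower, and 10.3% of all genes higher and 10.2% lower.

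**Figure D4:**
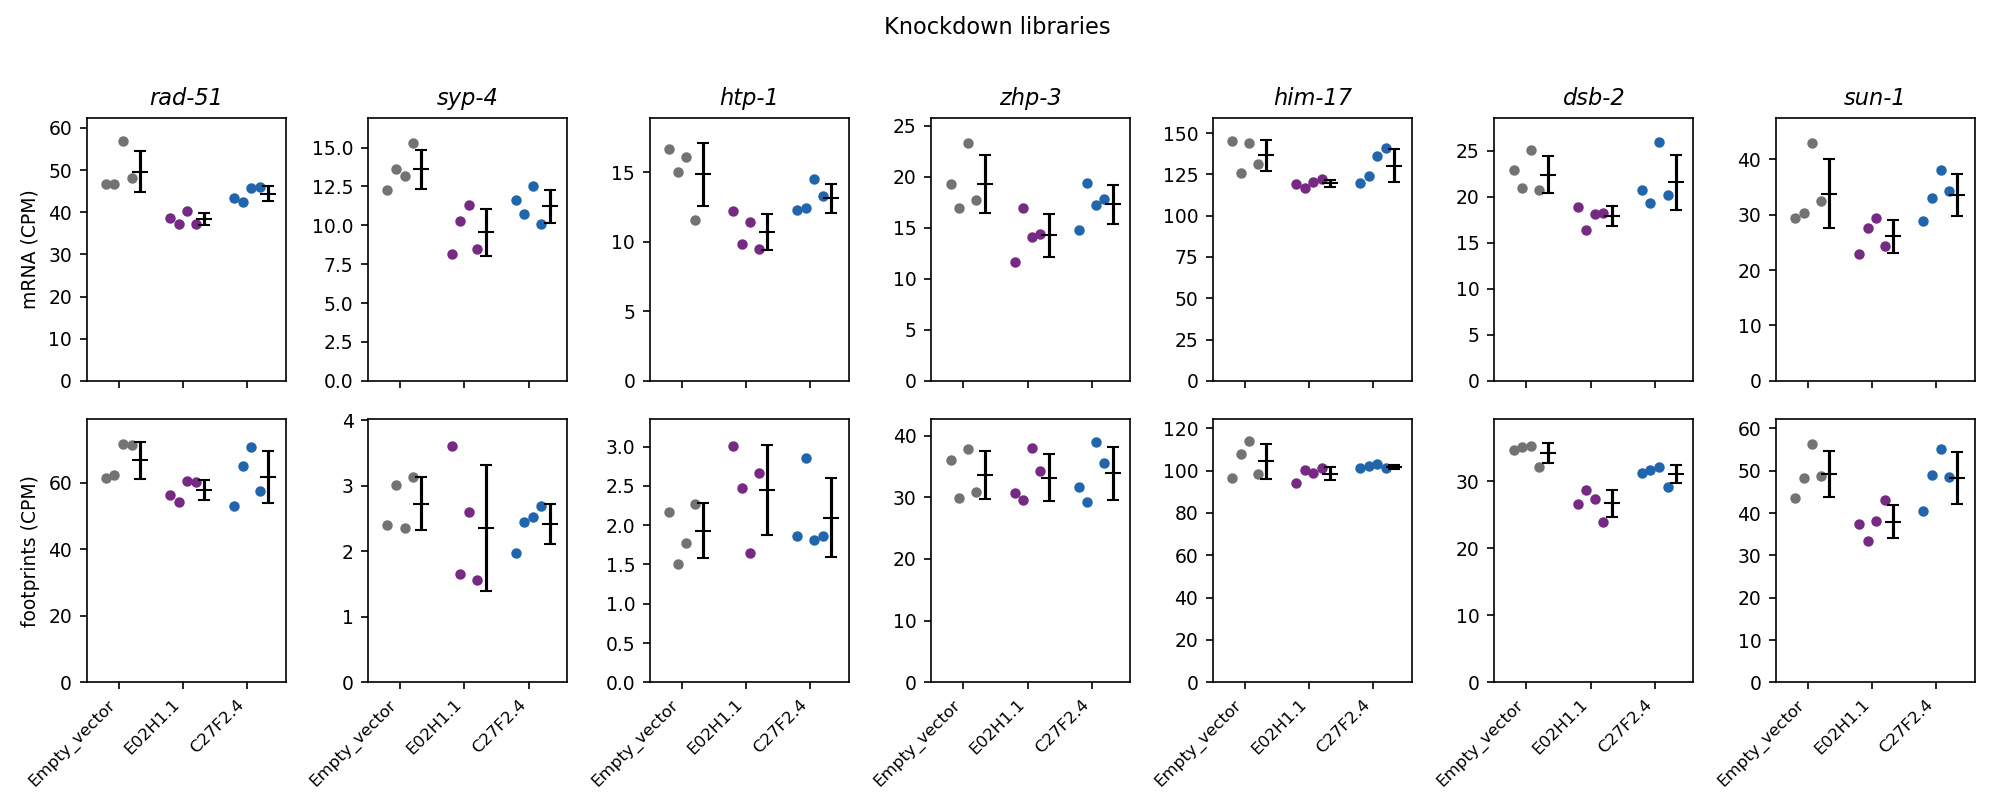
CPM of 7 meiotic genes in each Empty_vector, E02H1.1 and C27F2.4 library, mRNA and footprints, with bars for the mean and SD of 4 libraries. In mRNA the E02H1.1 points of rad-51, syp-4, him-17, dsb-2 and sun-1 lie below all Empty_vector points. The C27F2.4 points of rad-51 also lie below all Empty_vector points in mRNA, and those of the other genes overlap them.

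Fold changes below 0 were found for 33 of 37 messages (50.8% of all genes) and 24 of 29 footprint levels (49.0% of all genes), with medians of -0.17 and -0.15. Other meiosis genes had 34 of 71 messages called lower, 47.9% against 19.6% of all genes. The 1 message called higher was that of the checkpoint kinase gene atm-1 (0.11 ± 0.04). The lowest were prom-1, an F-box factor of pairing and synapsis (-0.43 ± 0.12), the chromosomal passenger gene csc-1 (-0.40 ± 0.07) and cmt-1 (-0.38 ± 0.07). In footprints 12 of 71 were called lower and 0 higher, 16.9% lower against 9.23% of all genes. Those called included klp-18, a kinesin of the oocyte spindle, at -0.52 ± 0.09 and the repair genes rad-50 and smc-5 at -0.41 ± 0.09 and -0.41 ± 0.07. TE rose for air-2 (0.28 ± 0.08), dlc-1 (0.25 ± 0.06) and skr-1 (0.17 ± 0.06) and fell for klp-18 (-0.32 ± 0.10).

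In the same libraries, 10 of 21 oocyte and maternal messages were called lower and 0 higher (median -0.26). This was 47.6% lower, against 19.6% lower and 19.9% higher over all genes. Their sums were 1682 to 2002 CPM in Empty_vector and 1384 to 1613 in E02H1.1. Of 17 germline messages, 2 were called lower and 1 higher, 11.8% and 5.88%, both under the shares of all genes. Germline sums were 1223 to 1254 CPM in Empty_vector and 1129 to 1231 in E02H1.1. In footprints 4 of 16 and 3 of 15 were called lower. Early zygotic messages were called lower for 3 of 8 (median -0.21), with sums of 544 to 580.2 and 489.7 to 519 CPM. Furrow and larval cuticle collagens were called higher for 1 of 7 and lower for 1 in mRNA, and higher for 3 of 6 in footprints (median 0.24) and 3 of 6 in TE (median 0.28), with footprint sums of 3230.3 to 3497 and 3626 to 4312 CPM. None of these markers was at 0 throughout, and their part in the result was not tested. With library totals, TE calls over all genes moved to 6.82% higher and 4.8% lower.

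Knockdown of C27F2.4, compared with the same Empty_vector libraries, gave fewer calls. Of 37 messages, rmh-1 fell and 0 rose, which is 2.7% against 5.56% of all genes called lower and 8.11% called higher. The rmh-1 message (WBGene00019712) had 12, 10.3, 10.5 and 10.4 CPM in the controls and 7.55, 6.77, 9.45 and 8.6 in C27F2.4 A to D. The groups were separate (-0.42 ± 0.14, adjusted p = 0.0434), and the call ended on leaving out any of 7 of the 8 libraries, with an adjusted p of up to 0.155. Of the 37 messages, 3 had an unadjusted p under 0.05 in edgeR's test, all with fold changes below 0: rmh-1, rad-51 and syp-4. Over all genes, 1752 of 13637 messages had such a p and a fold change below 0. No footprint or TE change was called among 29 genes by edgeR or DESeq2. In the edgeR test, 1 footprint level, that of the pairing centre gene zim-1 (-0.40 ± 0.18), and 0 TE values had an unadjusted p under 0.05. Among all genes, 920 of 10736 footprint levels had such a p and a fold change below 0, and 1496 of 10714 TE values had such a p. Over all genes, 2.11% were called lower and 4.96% higher in footprints, and 0.551% lower and 0.271% higher in TE (0.467% and 0.485% with library totals).

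The intervals, taken from the SE by a normal approximation, are slightly narrow for so few libraries. They show roughly what sizes of change these libraries allowed. The approximate 95% interval of the C27F2.4 mRNA log2 fold change ran from -0.30 to -0.03 for rad-51 and from -0.52 to -0.04 for syp-4. It ran from -0.22 to 0.20 for sun-1 and from -0.25 to 0.14 for dsb-2. The intervals of rad-51 and syp-4 lie below 0, and neither message was called. All C27F2.4 libraries of the rad-51 message (42.5 to 46.0 CPM) were below all Empty_vector libraries (46.8 to 56.8 CPM). Fold changes below 0 were seen for 26 of 37 messages (50.9% of all genes) and 24 of 29 footprint levels (51.2% of all genes), with medians of -0.06 and -0.08. Among the other meiosis genes, dlc-1 (-0.20 ± 0.04) and skr-1 (-0.13 ± 0.04) fell in mRNA, klp-18 (-0.36 ± 0.08) and the phosphatase gene gsp-2 (-0.18 ± 0.04) fell in footprints, and TE rose for dlc-1 (0.25 ± 0.06). No germline, oocyte, early zygotic or embryonic sheath marker was called in either assay, while 4 of 7 furrow and larval cuticle collagen messages were called lower (median -0.18), with sums of 4318 to 5166 CPM in Empty_vector and 4528 to 4884 in C27F2.4, and their part in the result was not tested.

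The knockdowns were also compared with each other, which is the test of a difference between them. In E02H1.1 against C27F2.4, 0 of 37 messages, 0 of 29 footprint levels and 0 of 29 TE values were called by edgeR, where 3.26%, 1.25% and 0.0467% of all genes were called in either direction. In mRNA, 9 members had an unadjusted p under 0.05, all lower in E02H1.1: syp-2 (-0.46 ± 0.14), zim-3 (-0.44 ± 0.17), sun-1 (-0.36 ± 0.11), rad-54.L (-0.33 ± 0.12), htp-1 (-0.29 ± 0.12), zhp-3 (-0.28 ± 0.12), dsb-2 (-0.27 ± 0.10), rad-51 (-0.21 ± 0.07) and him-17 (-0.12 ± 0.05). The lowest adjusted p of these members was 0.063, and DESeq2 called 3 messages. Over all genes, 2993 of 13637 messages had an unadjusted edgeR p under 0.05, and 1520 of these were lower in E02H1.1. In footprints 3 members had an unadjusted p under 0.05 (sun-1 at -0.35 ± 0.10, dsb-2 at -0.22 ± 0.08 and spo-11 at -0.66 ± 0.26) and in TE 1 had (syp-2 at 0.75 ± 0.30), and DESeq2 called 0 of either. Over all genes, 1559 of 10736 footprint levels, 779 of them lower, and 938 of 10714 TE values had such a p. Of the other meiosis genes, 4 of 71 messages were called lower in E02H1.1, among them mau-2 (-0.28 ± 0.07), csc-1 (-0.27 ± 0.07) and slx-1 (-0.25 ± 0.07).

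**Figure D5:**
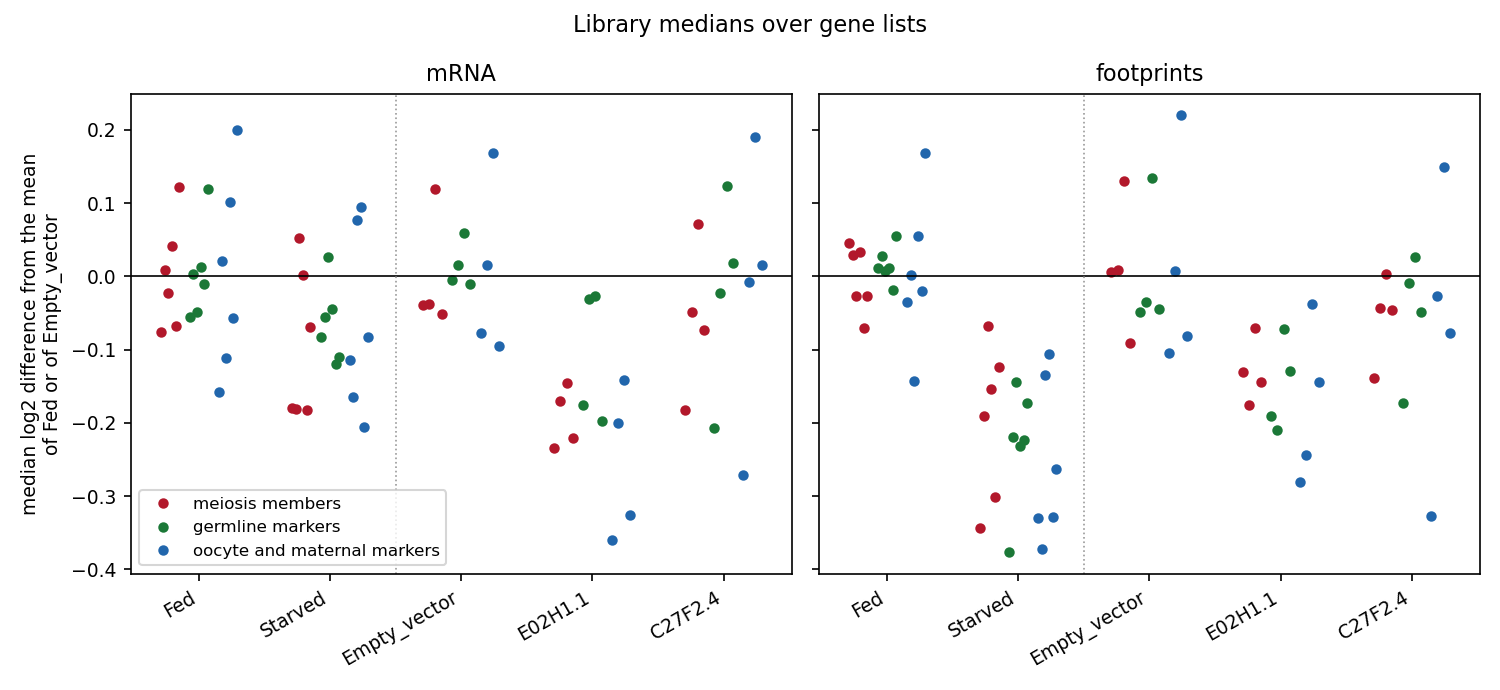
Median log2 difference of each library from the mean of its control group, over the meiotic genes, general germline markers, and oocyte and maternal markers, for mRNA and footprints. In mRNA the E02H1.1 medians of the meiotic genes lie between -0.234 and -0.145 and those of C27F2.4 between -0.183 and 0.071; in footprints those of Starved lie between -0.343 and -0.068.

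Per library, the median meiotic message in the 4 E02H1.1 libraries lay at -0.234 to -0.145 from the Empty_vector mean on the log2 scale. C27F2.4 A had -0.183 and C27F2.4 C had 0.071, so the C27F2.4 libraries spread more widely and Empty_vector C itself had 0.119. In these libraries the oocyte and maternal markers had -0.271, 0.19 and 0.168, in the same order. The Starved footprint libraries ran from -0.343 in Starved 1 to -0.068 in Starved 3, and the 6 Fed libraries from -0.070 to 0.046.

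In all, 20 of the 37 measured members were called in at least 1 comparison and 17 in none. The latter were the break factors dsb-3, him-5 and him-19, the axis genes coh-3 and htp-2, the pairing genes him-8, zim-1, zim-2, zim-3, chk-2 and plk-2, and the crossover genes him-14, msh-5, cosa-1, zhp-1, zhp-2 and zhp-4. In the WBcel235 gene table, 13 of the 38 overlap another protein-coding gene, 8 of them among the called members. Whether counting used the strand is not given in the sources used here, so these calls and the ratios of such genes are uncertain. The overlapping gene of lab-1, T05F1.11, rose (0.42 ± 0.13) where lab-1 fell in the E02H1.1 knockdown. That of spo-11, enpl-1, fell (-0.13 ± 0.04) from 1600.2 CPM in Empty_vector. The genes overlapping syp-3 (mrt-1, -0.12 ± 0.09), coh-4 (Y45G5AM.7, -0.08 ± 0.05), syp-1 (F13A7.14, -0.18 ± 0.08) and xnd-1 (C05D2.8, 0.06 ± 0.15) were not called in the comparison concerned, nor was exl-1 with dsb-2 (-0.28 ± 0.13 in mRNA and -0.08 ± 0.14 in footprints), and acl-13, which overlaps dsb-1, had no tested footprint level.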

How the data were processed

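Per the labels, polyA mRNA-seq and Ribo-seq libraries were made from C. elegans, 24 of each. The authors deposited whole-number counts per gene, with no scaling; the deposited log2 translational efficiencies were not used. Per the submitters' processing notes, cutadapt was used; the aligner, counter, build and annotation were not given in the sources used here. A reference gene table named 19414 of 19454 identifiers, and neighbours came from WBcel235 names. Knockdown columns carry letters where labels carry numbers, so libraries are named by letter.

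The counts went into edgeR 4.0.16 under R 4.3.3 (TMM, filterByExpr, robust quasi-likelihood, two-sided tests, Benjamini-Hochberg over all genes, threshold 0.05), Fed with Starved and the 3 knockdown groups together. TE was tested as the assay by group interaction. The code was tested on simulated data. All 37 messages passed the filter in both experiments; in footprints 28 of 29 did in Fed and Starved (him-5 did not) and 29 in the knockdowns. CPM were TMM-scaled within experiment and assay; footprint to mRNA ratios used a pseudocount of 0.5 CPM.

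Members and lists were chosen with earlier results of these data known. Every library value is given for up to 5 called members with the smallest adjusted p per comparison and assay (lowest, median and highest for groups of 6); other called members are named, as are up to 3 other meiosis genes each way. Alternatives were DESeq2 1.42.0 size factors and Wald test, library totals, no filter, each library left out, a replicate block, a culture block for TE and, chosen after seeing the data, leaving out Starved 1 and Starved 5.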

Additional observations from a re-analysis of the deposited data

Results flagged for a closer look

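Of 63 groups of 4 or 6 libraries tested for a library far from the rest, 3 had one, where chance gives about 1 in 20. All 3 were Empty_vector messages. The rad-51 message was 56.8 CPM in Empty_vector C and 46.8 to 48.2 in the other 3. The lab-1 message was 9.74 CPM in Empty_vector C and 7.72 to 7.85 in the others. The rmh-1 message was 12 CPM in Empty_vector A and 10.3 to 10.5 in the others. The rad-51 call in the E02H1.1 knockdown held without Empty_vector C, whereas the lab-1 call ended without it, and the rmh-1 calls in both knockdowns ended without Empty_vector A.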

How the results depend on the processing

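Of 32 calls on single members, 19 held on leaving out any 1 library, 13 held under every alternative run, and 0 changed sign under any. In Starved against Fed, the 5 mRNA calls became 2 without Starved 1 and Starved 5 and 4 to 9 on leaving out 1 library, and the 9 footprint calls became 4 and 9 to 11. Without Starved 1 and Starved 5, lower calls over all genes fell from 10.2% to 6.25% in mRNA and from 14.7% to 9.62% in footprints. The 2 TE calls became 1 with library totals, 1 with the replicate block and 0 to 3 on leaving out 1 library. In E02H1.1 against Empty_vector, leaving out 1 library gave 8 to 12 mRNA calls for 13 and 2 to 4 footprint calls for 2. Over all genes it gave 15.4% to 19.2% called lower in mRNA and 7.09% to 8.78% in footprints. For the 0 TE calls it gave 0 to 2, where a block on same-named mRNA and Ribo-seq libraries gave 3. The C27F2.4 mRNA call became 0 to 1. In E02H1.1 against C27F2.4, the 0 mRNA calls became 3 with DESeq2 and 0 to 6 on leaving out 1 library, and the 0 footprint calls 0 to 1.

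Labels share replicate numbers. Between groups, deviations of same-numbered Fed and Starved libraries correlated over 0.1 in 0 of 6 pairs in either assay, and those of same-lettered knockdown libraries in 1 or 2 of 4 pairs, up to 0.494. Between assays, 15 of 24 same-named libraries correlated over 0.1, from -0.02 to 0.621. The replicate block gave 16 mRNA and 6 footprint calls for E02H1.1 against Empty_vector, and 3 and 1 for E02H1.1 against C27F2.4. For E02H1.1 against Empty_vector it called 22.2% of all genes lower and 21.7% higher in mRNA, and 12.4% and 13.8% in footprints. For E02H1.1 against C27F2.4 these shares were 5.41% and 5.19%, and 2.03% and 1.97%. Where a setting moved a count, the cause was not tested. Footprint libraries hold fewer counts than mRNA libraries, and low genes such as zhp-1 or him-14 are measured loosely.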
